A study of Homo sapiens with 4 samples.

Results

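The histone locus on the short arm of chromosome 6, band 6p22, was examined in a ChIP-seq series from SH-SY5Y, an established human line of neuroblastoma, the tumour of immature sympathetic nerve cells, whose cells acquire neuronal traits in retinoic acid. Members were chosen by position alone. They are all enriched regions whose midpoint lay between 25700001 and 28400000 on chromosome 6 (hg19), in a list of CHD5 peaks and a list of H3K27me3 regions. This gave 57 of 32543 CHD5 peaks and 683 of 257073 H3K27me3 regions, or 740 of 289616 regions in all. CHD5, a nucleosome remodelling helicase with chromodomains, was captured on streptavidin beads from SH-SY5Y cells that expressed the construct FBio-CHD5. H3K27me3, the repressive histone mark written by Polycomb repressive complex PRC2, was precipitated with an antibody from cells with the same construct. A streptavidin pull-down from cells with the construct FBio-Ctrl and an input DNA library from FBio-CHD5 cells belong to the series. Neither of the region lists used here is theirs. All 4 libraries came from cells kept for 8 days in 10 uM retinoic acid, and each stood alone in its group. The CHD5 values are therefore those of an introduced construct in treated cells. Whether those cells were a clone or a pool is not stated in the labels. No read counts come with the lists, so depth is unknown, and the cell type could not be checked from them.

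Replication-dependent histone genes encode the H1, H2A, H2B, H3 and H4 proteins that package newly made DNA. They are small genes without introns, they are transcribed mainly in S phase, and their messages end in a stem-loop in place of a poly(A) tail. The locus on 6p22 is the major cluster of such genes in the human genome. Butyrophilin genes, which encode membrane proteins of the immunoglobulin superfamily, lie within the cluster. A family of zinc finger genes of the ZNF, ZSCAN and ZKSCAN type, which encode DNA-binding proteins, follows it. H3K27me3 is known for covering silenced developmental genes in domains that can span many kilobases.

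The order of genes was taken from the RefSeq annotation of GRCh38.p14, another build than that of the lists, so it gives names and neighbours and no hg19 positions. It names 55 histone protein-coding genes here, of which 6 encode H1, 12 H2A, 15 H2B, 10 H3 and 12 H4. H2AC1 and H2BC1 stand alone before the solute carrier genes of the SLC17A family. A dense group follows, with 9 genes from H1-1 to H1-2, then HFE, the regulator of iron uptake, and then 23 genes from H4C3 to H4C8. The 6 butyrophilin protein-coding genes, from BTN3A2 to BTN1A1, come next, and later 5 histone genes from H2BC11 to H2AC12. Between H2AC12 and the last group, 16 genes from H2BC13 to H2BC17, RefSeq places 5 other protein-coding genes and 51 tRNA genes. Those protein-coding genes are PRSS16, POM121L2, LOC105375107, ZNF391 and ZNF184. The later histone genes are thus split into separate groups by a span without histone genes, and the olfactory receptor genes OR2B2 and OR2B6 stand between H2BC17 and the zinc finger genes.

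To show promoters of the gene families after which the stretches are named, 4 RefSeq promoters are given, each from 250 bases before to 50 after the start of the gene. For H1, H4, butyrophilin and zinc finger genes in turn, the gene shown is the first in chromosomal order with an entry in the table. H1-1 encodes a linker histone (chr6:26017738-26018037, GRCh38.p14, minus strand), and H4C2 encodes H4 of the nucleosome core (chr6:26027234-26027533, GRCh38.p14, minus strand). BTN3A2 encodes a butyrophilin (chr6:26364948-26365247, GRCh38.p14, plus strand), and ZKSCAN8 a zinc finger protein (chr6:28141633-28141932, GRCh38.p14, plus strand). Positions of this build do not apply to the hg19 regions below. Sequences run 5′ to 3′. Capitals mark the motifs TATAAA and CCAAT on either strand, so TTTATA and ATTGG are marked too.
H1-1: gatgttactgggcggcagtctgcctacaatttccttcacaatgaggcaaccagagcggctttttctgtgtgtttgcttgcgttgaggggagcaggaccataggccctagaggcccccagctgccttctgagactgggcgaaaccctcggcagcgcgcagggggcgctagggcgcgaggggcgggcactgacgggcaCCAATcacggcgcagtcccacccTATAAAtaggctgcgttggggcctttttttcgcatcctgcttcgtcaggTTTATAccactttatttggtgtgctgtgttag
H4C2: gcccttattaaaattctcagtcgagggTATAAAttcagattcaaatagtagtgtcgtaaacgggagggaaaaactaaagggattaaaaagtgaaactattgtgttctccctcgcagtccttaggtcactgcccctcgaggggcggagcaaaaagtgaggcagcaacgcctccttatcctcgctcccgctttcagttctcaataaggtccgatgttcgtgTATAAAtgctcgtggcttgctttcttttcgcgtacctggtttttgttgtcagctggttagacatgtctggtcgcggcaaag
BTN3A2: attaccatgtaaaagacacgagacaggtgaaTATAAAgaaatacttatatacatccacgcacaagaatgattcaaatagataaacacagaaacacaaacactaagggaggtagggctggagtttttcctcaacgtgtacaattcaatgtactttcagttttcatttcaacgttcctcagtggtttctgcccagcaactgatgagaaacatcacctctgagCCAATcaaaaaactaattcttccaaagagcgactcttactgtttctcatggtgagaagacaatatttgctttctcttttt
ZKSCAN8: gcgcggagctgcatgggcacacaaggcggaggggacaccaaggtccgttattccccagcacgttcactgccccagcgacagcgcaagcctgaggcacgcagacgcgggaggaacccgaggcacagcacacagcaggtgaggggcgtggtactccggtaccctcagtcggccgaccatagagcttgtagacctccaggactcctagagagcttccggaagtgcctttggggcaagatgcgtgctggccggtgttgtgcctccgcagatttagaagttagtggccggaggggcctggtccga

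TATAAA and CCAAT were common among the histone promoters. The table matched 50 of 55 histone genes with 54 promoters, 4 of 6 butyrophilin genes with 5 and 6 of 9 zinc finger genes with 13, since a gene can have several. Without an entry were H4C1, H4C3, H2AC12, H3C11, H3C12, BTN2A2, BTN3A1, ZNF165, ZSCAN16 and ZSCAN26. TATAAA was found on either strand in 36 of the 54 histone promoters (66.7%), in 1 of 5 butyrophilin promoters, in 0 of 13 zinc finger promoters and in 11.5% of all 35116 promoters in the table. CCAAT was found in 47 of the histone promoters (87.0%), in 3 of 5 butyrophilin promoters, in 4 of 13 zinc finger promoters and in 34.6% of all promoters. Among the histone families, H4 had CCAAT in 3 of 10 promoters, while all 44 promoters of the H1, H2A, H2B and H3 genes had it. A match to either motif was counted wherever it fell in the window. Median GC content was 42.3% for histone, 41.3% for butyrophilin and 58.7% for zinc finger promoters, and the median number of CpG dinucleotides was 11, 3 and 17. All promoters in the table had medians of 58.7% and 14, so the zinc finger promoters had the GC content of promoters at large. These are descriptions of sequence, without a test and with no placement on the regions of either list.

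**Figure D1:**
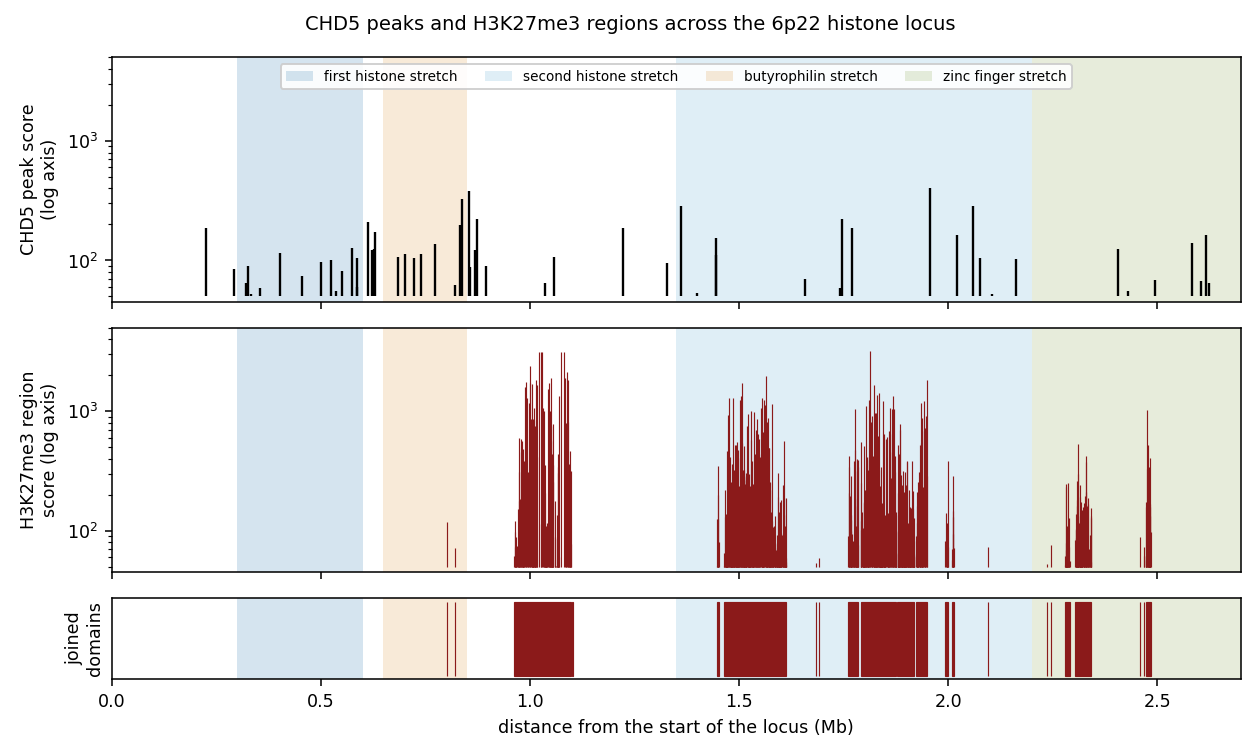
Scores of CHD5 peaks (top) and H3K27me3 regions (middle), both on a log axis in the authors' units, and H3K27me3 domains joined across up to 3 kb (bottom), against the distance from the start of the locus in Mb. Shading marks the compared stretches; the first histone stretch holds 13 CHD5 peaks and no H3K27me3 region, and the second holds 14 CHD5 peaks and 473 H3K27me3 regions.

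The main comparison set the histone stretches, from 26.00 to 26.30 Mb and from 27.05 to 27.90 Mb, against the butyrophilin stretch from 26.35 to 26.55 Mb and the zinc finger stretch from 27900001 to 28400000. The first histone stretch held many CHD5 peaks, most of low score, and no H3K27me3 region, while the second carried most of the H3K27me3 of the locus. The butyrophilin stretch had a like density of CHD5 peaks, of higher median score, and 2 H3K27me3 regions. The zinc finger stretch had both, with fewer H3K27me3 regions per Mb than the second histone stretch. With 1 library per group no replicate error exists, so no test was run. Intervals cover counting error only and treat regions as independent, which makes them too narrow in both lists: many H3K27me3 regions are pieces of the same domain, and CHD5 peaks are clustered. An interval that leaves out 1 therefore does not show that stretches differ.

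CHD5 counted 13 peaks in the first histone stretch, or 43.3 per Mb (exact Poisson 95% interval 23.1 to 74.1), and 14 in the second, or 16.5 per Mb (9.005 to 27.6). The butyrophilin stretch held 8 peaks, or 40 per Mb (17.3 to 78.8), and the zinc finger stretch 7, or 14.0 per Mb (5.63 to 28.8). The density in the first histone stretch was 2.63 times that in the second, with an exact conditional interval of 1.14 to 6.03. It was 3.10 times that of the zinc finger stretch (1.15 to 9.16). Against the butyrophilin stretch the ratio was 1.08 (0.416 to 3.02), so a difference could not be told from counting error. These ratios rest on peaks of low score: among peaks at or above the median score of the list, the first histone stretch held 3.33 per Mb, against 8.24 in the second, 15 in the butyrophilin and 6 in the zinc finger stretch. There the ratio to the second histone stretch was 0.405 and that to the zinc finger stretch 0.556, so both values fell below 1. They rest on 1 peak in the first histone stretch, against 7 and 3, and no interval was computed for them. Intervals are not adjusted for the number of ratios.

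Taken as a pair, the histone stretches held 27 CHD5 peaks, or 23.5 per Mb (15.5 to 34.2). This was 0.587 times the butyrophilin density (0.259 to 1.49) and 1.68 times the zinc finger density (0.712 to 4.56). Both intervals include 1.

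H3K27me3 followed another pattern. The first histone stretch had 0 regions and the second 473, or 556 per Mb (507 to 609). The butyrophilin stretch had 2 regions, or 10.0 per Mb (1.21 to 36.1), and the zinc finger stretch 97, or 194 per Mb (157 to 237). Pooled histone stretches had 411 per Mb, which was 41.1 times the butyrophilin density (11.3 to 341) and 2.12 times the zinc finger density (1.70 to 2.67). All of that excess came from the second histone stretch. The list holds only regions with a score of at least 50, so 0 listed regions sets no limit on weaker signal in the first.

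**Figure D2:**
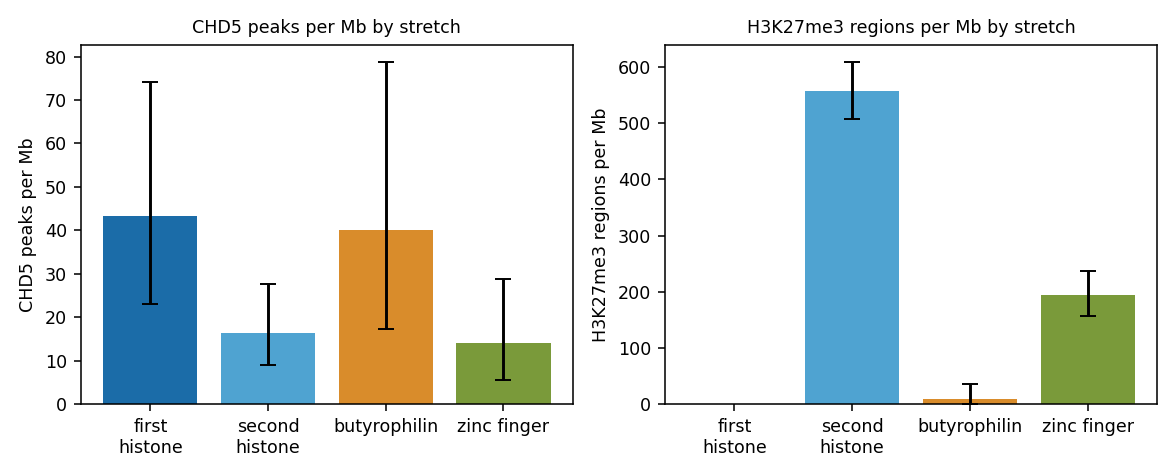
Bars give CHD5 peaks per Mb (left) and H3K27me3 regions per Mb (right) in the 4 stretches, with exact Poisson 95% intervals where the count is above 0. CHD5 density was 43.3 per Mb in the first histone stretch and 40 per Mb in the butyrophilin stretch, while H3K27me3 density reached 556 per Mb in the second histone stretch.

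Tiles of the same length along the autosomes show where these counts stand, as a description. Of the 9584 tiles of 300 kb, 3.07% held at least 13 CHD5 peaks, against a median of 2, and 44.3% held no H3K27me3 region. A tile with no H3K27me3 region and at least 13 CHD5 peaks made up 1.87%. For the second histone stretch, 28.1% of 3379 tiles of 850 kb had at least 14 CHD5 peaks and 2.25% had at least 473 H3K27me3 regions, where the median tile had 5. Its CHD5 count was thus a common one and its H3K27me3 count was high. Of 14384 tiles of 200 kb, 5.71% had at least 8 CHD5 peaks, as the butyrophilin stretch did, and 35.4% had at least 2 H3K27me3 regions. Of 5748 tiles of 500 kb, 35.0% reached the 7 CHD5 peaks and 15.7% the 97 H3K27me3 regions of the zinc finger stretch. Over the whole locus, 10.6% of 1055 tiles of 2700 kb reached its 57 CHD5 peaks and 10.8% its 683 H3K27me3 regions.

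The CHD5 peaks of the first histone stretch were spread along it and of modest score. Their scores ran from 52.0 to 127, with a median of 81.7, and 1 of 13 lay above the median of the whole CHD5 list, 117. The highest score, 127, belonged to the peak at chr6:26272868-26274811, followed by 116 at chr6:26102794-26104798 and 104 at chr6:26285016-26286118. Next came 99.95 at chr6:26222731-26224203 and 97.0 at chr6:26199439-26201233. The widest peak, 2511 bp at chr6:26026022-26028532, scored 89.8. Midpoints of neighbouring peaks were a median of 18.9 kb apart, and peaks occurred in each 50-kb bin of the stretch, between 1 and 4 per bin.

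The second histone stretch held stronger CHD5 peaks at wider spacing. Scores ran from 51.9 to 401 with a median of 132, and 7 of 14 lay above the list median. The strongest peak, at chr6:27654629-27656697, scored 401, a value that 90.6% of the list did not exceed. It was followed by 285 at chr6:27758756-27761357 and 283 at chr6:27059188-27060957, then 224 at chr6:27445347-27447715 and 186 at chr6:27469782-27471599. The median distance between neighbouring midpoints was 40 kb. The stretches overlapped in score, since 7 peaks of the second lay at or below the highest score of the first.

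In the butyrophilin stretch, 4 of the 8 CHD5 peaks scored within a narrow band. They lay at chr6:26383081-26384452 with a score of 108, chr6:26401264-26403325 with 113, chr6:26421536-26422773 with 104 and chr6:26439687-26440823 with 113. A peak at chr6:26473511-26475101 scored 138. The far end of the stretch held the weakest and the strongest peaks, at chr6:26520040-26520978 with 62.8, chr6:26531989-26533980 with 198 and chr6:26535760-26538749 with 327.

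In the zinc finger stretch, the 7 CHD5 peaks began only at 28103273, beyond its 2 widest H3K27me3 domains. The highest score was 163 at chr6:28316308-28317676, followed by 139 at chr6:28282781-28284065 and 124 at chr6:28103273-28105965. The others scored 68.7 at chr6:28192489-28193945, 66.8 at chr6:28302669-28303625, 65.1 at chr6:28323295-28324228 and 55.9 at chr6:28129200-28130433. The median was 68.7, and 3 of 7 lay above the list median.

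The median width of CHD5 peaks was below that of the whole list in all 4 stretches. The median CHD5 width was 1213 bp in the first histone stretch (quartiles 1023 and 1795) and 1582 bp in the second (1303 and 1818). It was 1481.5 bp in the butyrophilin stretch (1213 and 2009.5) and 1285 bp in the zinc finger stretch (1095.5 and 1413), where the whole list had 1647 bp (1198 and 2360). The ranges overlapped in full or in large part, from 903 to 2511 bp, 990 to 2602 bp, 939 to 2990 bp and 934 to 2693 bp in the same order. No peak in the locus was wider than 3063 bp. CHD5 peaks covered 6.11% and 2.73% of the histone stretches, 6.66% of the butyrophilin stretch and 1.99% of the zinc finger stretch. These shares depend on the number of peaks per Mb as well as on width, and their order was not that of the median widths.

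**Figure D3:**
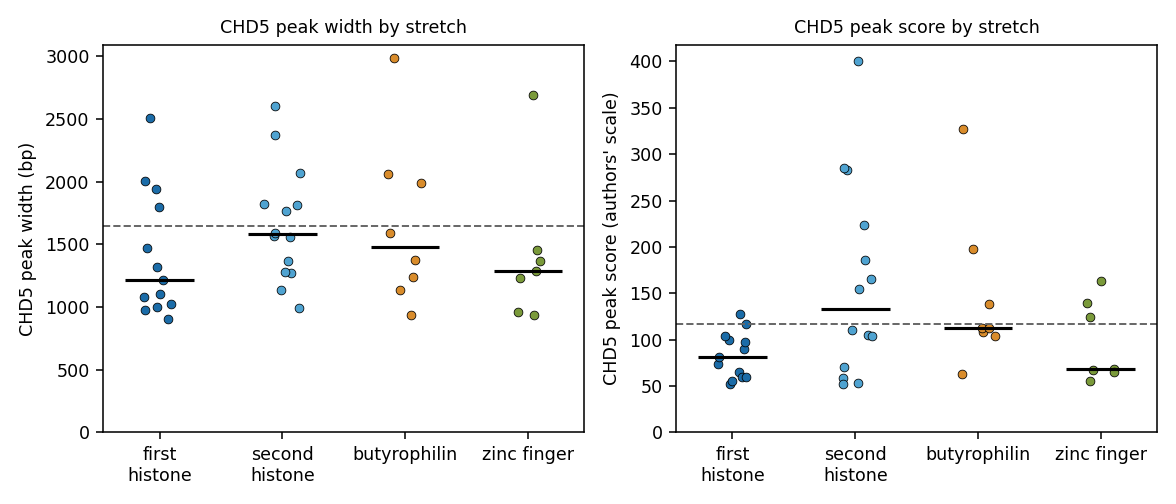
Each point is a CHD5 peak, by stretch, with its width in bp (left) or its score in the authors' units (right); solid lines are medians of the stretch and dashed lines are medians of the whole list, 1647 bp and 117. In the first histone stretch 1 of 13 peaks scored above the list median, against 7 of 14 in the second.

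The H3K27me3 regions of the second histone stretch and the zinc finger stretch had higher median widths than the list at large, and more than 1 in 2 scored above its median. In the second histone stretch the median width was 309 bp (quartiles 199 and 557), and 327 of 473 regions, 69.1%, scored above the list median of 84.6, where 49.9% of the list does. The butyrophilin regions, 316 bp at chr6:26501511-26501826 and 156 bp at chr6:26521438-26521593, scored 117 and 71.7. The zinc finger regions had a median of 267 bp (189 and 402), and 64 of 97 scored above the list median. The whole list had a median width of 238 bp (173 and 367). Width and score are not separate measures, as their Spearman rho across the 683 regions of the locus was 0.942, and 0.721 across its 57 CHD5 peaks. These regions come from 1 library each, and the rho values are descriptions.

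The strongest H3K27me3 region of the second histone stretch, at chr6:27512292-27515514, scored 3214, and 21 regions of the list, itself included, scored above 3100. The next were 1957 at chr6:27262284-27264638 and 1816 at chr6:27646841-27649225. In the zinc finger stretch the strongest scored 1027 at chr6:28173901-28175481, then 534 at chr6:28008562-28009413 and 522 at chr6:28176278-28177167. None of these regions shared a base with a CHD5 peak.

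Regions separated by up to 3 kb were then joined into domains, because a broad mark is cut into short regions by a peak caller. The 473 regions of the second histone stretch formed 11 domains, 6 of them at least 5 kb wide, which covered 340 kb or 40.01% of the stretch, while the first had 0. The butyrophilin stretch had 2 isolated regions, or 0.236% of its length. The zinc finger stretch had 7 domains that covered 65.7 kb or 13.1%, with 3 at least 5 kb wide. Across the locus, 657 of 683 regions, or 96.2%, lay in its 10 domains of at least 5 kb.

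The widest domains of the second histone stretch were 149 kb long with 208 regions (chr6:27163589-27312862), 84.3 kb with 110 regions (chr6:27491056-27575305) and 40.7 kb with 67 regions (chr6:27578634-27619306). Domains of 27.2 kb (chr6:27622909-27650124) and 24.0 kb (chr6:27461131-27485112) lay beside them, so that the later ones formed an almost continuous block. In the zinc finger stretch the widest domains were 38.2 kb (chr6:28003828-28042016), 13.4 kb (chr6:27977961-27991349) and 11.3 kb (chr6:28172345-28183648). Regions filled between 35.5% and 76.6% of the domains of at least 5 kb in the second histone stretch, and between 32.9% and 76.2% in the zinc finger stretch, so the ranges overlapped. Among the compared stretches, the longest domains were in the second histone stretch, while a domain of 136 kb lay outside them. Which genes these domains cover was not analysed here. In the gene order other genes stand between the later groups of histone genes, so the H3K27me3 values are those of the stretch and cannot be assigned to its histone genes.

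H3K27me3 was not spread evenly over the second histone stretch. A division at its outermost domains of more than 1 region was made after the values had been seen. From the start of the stretch to the first domain, 97.7 kb held 4 CHD5 peaks (40.9 per Mb) and 0 H3K27me3 regions. The 566 kb from the first to the last domain held 5 CHD5 peaks (8.84 per Mb) and 472 H3K27me3 regions, and domains covered 60.1% of it. The final 187 kb held 5 CHD5 peaks (26.8 per Mb) and 1 H3K27me3 region. Both ends of the stretch thus had more CHD5 peaks per Mb than its middle, but on 4 or 5 peaks in each piece. The H3K27me3 list itself defined the division and no intervals were computed, so no difference is drawn from it. In the gene order, histone genes form a group on each side of a span without them. Which hg19 positions they occupy was not analysed here, so the pieces cannot be matched to these groups.

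The zinc finger stretch was divided in the same way, again with few CHD5 peaks in each piece and no intervals. The 78.0 kb before its first domain of more than 1 region held 0 CHD5 peaks and 2 H3K27me3 regions. From the first to the last such domain, 206 kb held 2 CHD5 peaks (9.72 per Mb) and 95 H3K27me3 regions. The remaining 216 kb held 5 CHD5 peaks (23.1 per Mb) and 0 H3K27me3 regions.

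Overlap between the profiles was rare. Of the 14 CHD5 peaks in the second histone stretch, 0 shared a base with an H3K27me3 region (Wilson 95% interval 0 to 21.5%). In the butyrophilin stretch 0 of 8 did (0 to 32.4%), and in the zinc finger stretch 0 of 7 (0 to 35.4%). The 13 peaks of the first histone stretch had no listed H3K27me3 region within it to meet. Pooled, the histone stretches gave 0 of 27 (0 to 12.5%), an interval made narrower by those 13 peaks. In the whole CHD5 list the share was 2.19%, which lies inside each interval. These counts are therefore too small to tell the histone stretches from the list or from their neighbours.

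In the locus as a whole 2 of 57 peaks overlapped, or 3.51% (0.968% to 11.9%), and both lay outside the compared stretches. They were in a single domain of 136 kb at chr6:26662511-26798196, between the butyrophilin and the second histone stretch. The peak at chr6:26735172-26736274 scored 65.3 and had 994 of its 1103 bp inside H3K27me3 regions. The peak at chr6:26757746-26759232 scored 107 and shared 500 of 1487 bp. The domain held 110 regions, which filled 77.2% of it, with scores of up to 3100. That value recurs, in 5 regions of the locus, 313 regions of the H3K27me3 list and 10 peaks of the CHD5 list, so regions at that score cannot be ranked among themselves. A further peak, chr6:27469782-27471599 in the second histone stretch, lay between regions of the 24.0-kb domain, 66 bp from the nearest, without sharing a base.

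Counted per length, CHD5 peaks were sparser inside domains than outside. Domains covered 542 kb or 20.1% of the locus and held the midpoints of 3 of the 57 peaks, which is 5.53 per Mb, against 25.02 per Mb outside. The whole list had 2.70 per Mb inside and 11.1 per Mb outside domains, with the midpoints of 1.64% of its peaks inside and domains over 6.38% of the spans. In the locus the share of peaks inside was 5.26%. The lower density inside domains was thus shared with the whole list. Of the 10 domains at least 5 kb wide, 2 held CHD5, where 3.23% of the 10180 such domains in the list did. Those 2 were 136 and 24.0 kb wide. A wider domain has more room for a peak, and the comparison was matched neither for width nor for local CHD5 density. No excess is therefore drawn from it. In 50-kb bins, 10 of 54 had regions of both lists, 22 had CHD5 alone, 12 had H3K27me3 alone and 10 had neither.

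CHD5 peaks of the second histone stretch lay close to H3K27me3, and those of the first lay far from it. The distance to the nearest H3K27me3 region had a median of 300.3 kb in the first histone stretch (range 214 to 446 kb) and 15.8 kb in the second (0.0660 to 86.7 kb), so the ranges did not overlap. It was 43.5 kb in the butyrophilin stretch (0.459 to 117 kb) and 99.1 kb in the zinc finger stretch (8.84 to 119 kb), where the whole list had 166 kb. Peaks within 10 kb of H3K27me3 numbered 5 of 27 in the histone stretches, all in the second, and 1 each of 8 and of 7 in the butyrophilin and zinc finger stretches. The share in the whole list was 7.77%. A stretch with many H3K27me3 regions leaves little room for distant peaks, so the distances are not independent of the density above. No H3K27me3 region was listed from 25586988 to 26501510, a span around the first histone stretch. Any position in that stretch therefore lies further from a region than any position in the second. The separate ranges follow from the H3K27me3 list alone and say nothing about where CHD5 peaks fell.

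Those 5 peaks lay beside domains, apart from the peak inside the 24.0-kb domain. They were picked for lying within 10 kb of H3K27me3, so their place beside domains follows from that choice. At chr6:27145120-27146689 and chr6:27143639-27144628, peaks ended 992 and 3053 bp before the first domain of the stretch. The strongest CHD5 peak of the locus, at chr6:27654629-27656697, began 4504 bp after the domain that ends at 27650124. The peak at chr6:27719760-27721353 began 6386 bp after the last domain of more than 1 region. In the butyrophilin stretch the weakest peak, at chr6:26520040-26520978, lay 459 bp from an isolated region of 156 bp, and in the zinc finger stretch the peak at chr6:28192489-28193945 lay 8840 bp beyond a domain.

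**Figure D4:**
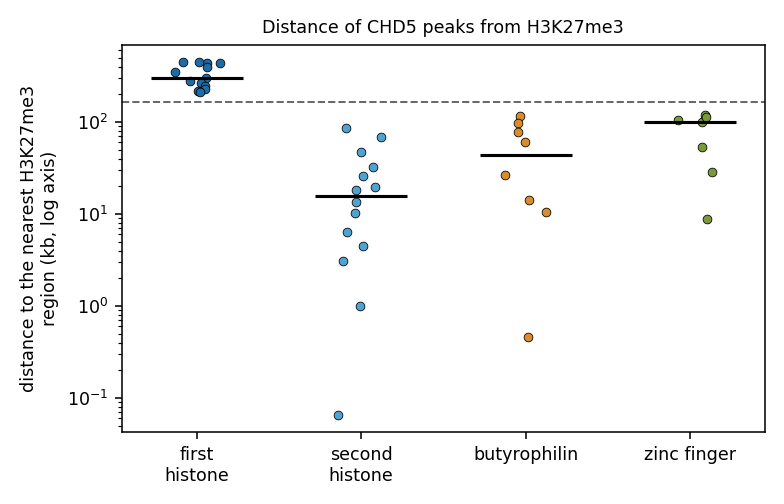
Each point is a CHD5 peak, by stretch, with its distance to the nearest H3K27me3 region in kb on a log axis; solid lines are medians of the stretch and the dashed line is the median of the whole list, 166 kb. Peaks of the first histone stretch lay 214 to 446 kb away, and those of the second 0.0660 to 86.7 kb. The H3K27me3 list alone sets these ranges apart, wherever CHD5 peaks fall within the stretches.

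Long spans free of either profile set the frame of the locus. No H3K27me3 region was listed from 25586988 to 26501510, a span of 915 kb that holds 27 CHD5 peaks. It takes in the first histone stretch and most of the butyrophilin stretch. The span begins before the locus, so some of these peaks are not members. Another such span ran for 346 kb from 26801897 to 27147681, with 6 CHD5 peaks. CHD5 was missing from 25656874 to 25925532, 269 kb without H3K27me3, and from 27863349 to 28103272, 240 kb with 75 H3K27me3 regions. It was also missing for 209 kb from 27146690 to 27356040 and for 183 kb from 27471600 to 27654628, with 215 and 225 H3K27me3 regions.

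Among the whole spans outside the compared stretches, CHD5 was densest in the shortest, between the first histone and the butyrophilin stretch. These spans differ in length, and the 50-kb bin from 26.55 to 26.6 Mb held more peaks, 5. The 50 kb from 26.30 to 26.35 Mb held 4 peaks, or 80.0 per Mb (exact Poisson 95% interval 21.8 to 205), all scoring above the list median, with 123 to 209. The 300 kb from 25700001 to 26000000 held 2 peaks (6.67 per Mb), and the 500 kb from 26.55 to 27.05 Mb held 9 (18 per Mb) with 111 H3K27me3 regions. The strongest of these 9, at chr6:26552302-26555364, scored 381 and was the widest CHD5 peak of the locus.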

How the data were processed

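CHD5 and H3K27me3 ChIP-seq region lists from SH-SY5Y cells were used, with 1 library each. Per the file headers both hold peaks from MACS, and the submitters' processing notes name hg19. For MACS, no version, threshold or background library is stated there, nor is an aligner. The score of each region is the authors' deposited value. Its smallest value is 50 in both lists and its scale is not stated, so it was used only within its list. A narrow-peak caller can cut a broad mark into pieces, and without its background library some peaks may mark places that shear or capture well, which was not tested. Starts were read as counted from 0 and are printed counted from 1.

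A region belonged to the stretch that holds its midpoint. Overlap meant at least 1 shared bp, and bedtools 2.31.1 gave the same 712 overlapping CHD5 peaks. H3K27me3 regions up to 3 kb apart were joined. Intervals are exact Poisson, exact conditional binomial and Wilson, at 95%. Tiles ran from the start of each autosome to its highest region end. The routines were tested on simulated regions. Software was pandas 2.3.3, numpy 2.4.6 and scipy 1.17.1 under Python 3.11.15, with matplotlib 3.10.9 for plots.

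The stretches and lists were chosen with earlier results of these data known. Named CHD5 peaks are all those of a stretch with up to 12, otherwise the 5 highest and 5 widest, and those that meet H3K27me3 or its domains. Named H3K27me3 items are the 3 widest domains and 3 highest regions of each stretch, and the longest free spans. Other named peaks, among them those within 10 kb of H3K27me3, the bins, the tiles, the pieces of the stretches and the remaining spans were chosen after values were seen. An hg19 sequence or annotation was not used here. Alternatives covered the score limit, assignment to stretches, borders, joining and overlap.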

Additional observations from a re-analysis of the deposited data

How the results depend on the processing

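Of 105 alternatives, 84 stayed within their interval or within 1.5 times their value, 19 moved further and 2 reversed. Part of the 84 was fixed in advance, so the tally overstates stability. With 0 H3K27me3 regions in the first histone stretch, a higher score limit or another joining gap must give 0 again. Likewise, overlaps of 0 in the compared stretches must stay 0 under a stricter limit. Both reversals came from keeping scores at or above the list median. The CHD5 density of the first histone stretch was then 0.405 times that of the second and 0.556 times that of the zinc finger stretch, since 1 of its 13 peaks remained. Under that limit CHD5 density in the histone stretches was 6.96 per Mb, and 0 CHD5 peaks of the locus overlapped H3K27me3. By construction fewer peaks remain there. Joining across up to 1 kb gave 29 domains in the histone stretches and across up to 10 kb gave 7, covering 27.2% and 31.2%. With joined domains in place of regions 1 CHD5 peak of the histone stretches overlapped, and with at least 50% of a peak inside, 1 did in the locus. No paired analysis was possible because each group has 1 library, and for the same reason no library could be left out.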
